A study of Mus musculus with 27 samples.

Results

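MiR-124 and miR-9 are the best known microRNAs of the nervous system, and this account follows their 4 mature forms, mmu-miR-124-3p, mmu-miR-124-5p, mmu-miR-9-5p and mmu-miR-9-3p (written below without the species prefix), in mouse embryonic stem (ES) cells. The members were chosen by their mature names in the deposited microRNA tables, which gave 4 of 1900 mature names and 12 of 2035 loci, 3 loci for each name. The cells were of the CJ7 line, grown with serum and leukaemia inhibitory factor, in 4 genotypes: Jarid2-/-, Eed-/-, Ezh2-/- and wild-type. Eed and Ezh2 are core subunits of Polycomb repressive complex PRC2, which methylates histone H3 at silent developmental genes, and Jarid2 is a cofactor of the complex. Small RNA was sequenced from 1 Jarid2-/- sample and from 2 samples each of Eed-/-, Ezh2-/- and wild-type cells, and the tables hold 1 column of counts for each genotype. Whether a column pools both samples is not given in the sources used here, nor is the number of clones behind a genotype, so the differences below are between single columns, with no replicates and no test.

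A microRNA hairpin is cut by Drosha and Dicer into a duplex of a 5p and a 3p arm, and usually the arm loaded into an Argonaute protein persists while its partner is degraded. Positions 2 to 8 of the loaded arm, the seed, pair with target messenger RNAs. MiR-124-3p is the abundant arm in neurons, where it lowers non-neuronal messenger RNAs such as that of the splicing regulator Ptbp1. MiR-9-5p, whose targets include the nuclear receptor Nr2e1 (Tlx), acts in neural progenitors, and its partner miR-9-3p is also loaded and functional. In non-neural cells the genes of both microRNAs are known targets of the repressor REST.

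The mature sequences are shown because all loci of a name share them. Capitals mark the seed.
miR-124-3p: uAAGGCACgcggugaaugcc
miR-124-5p: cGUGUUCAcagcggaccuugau
miR-9-5p: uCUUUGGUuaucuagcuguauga
miR-9-3p: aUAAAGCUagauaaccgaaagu
These are the sequences in the deposited tables, and for miR-9-5p and miR-9-3p each of 3 RefSeq entries (GRCm38.p6) was identical. The 4 seeds differed from each other, and 0 other names among the 1900 carried any of them, so no other name measured shares a member's seed. MiR-124-3p was the shortest member, at 20 nt with 60.0% G and C, and miR-9-5p the longest, at 23 nt with 34.8% G and C.

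The 3 loci of a name differ outside the mature arms, as the RefSeq hairpins of the miR-9 genes (GRCm38.p6, plus strand) show. Here capitals mark miR-9-5p and miR-9-3p.
Mir9-1 on chromosome 3: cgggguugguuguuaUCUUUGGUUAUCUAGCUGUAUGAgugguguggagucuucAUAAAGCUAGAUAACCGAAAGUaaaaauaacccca
Mir9-2 on chromosome 13: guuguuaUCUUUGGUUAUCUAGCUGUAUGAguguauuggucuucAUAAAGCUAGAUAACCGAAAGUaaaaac
Mir9-3 on chromosome 7: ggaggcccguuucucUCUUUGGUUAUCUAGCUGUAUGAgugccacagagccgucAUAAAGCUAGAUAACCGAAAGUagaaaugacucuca
The loop between the arms was 16 bases in Mir9-1 and Mir9-3 and 14 bases in Mir9-2, while both arms were the same in all 3. A read of a mature arm can therefore not be assigned to a gene.

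All 12 loci lie on the plus strand in the deposited coordinates (mm9). MiR-124-5p and miR-124-3p were placed at chr14:65209507-65209528 and chr14:65209546-65209565, at chr3:17695686-17695707 and chr3:17695723-17695742, and at chr2:180628750-180628771 and chr2:180628788-180628807. By chromosome these are the genes Mir124a-1, Mir124a-2 and Mir124a-3. In the RefSeq gene table (GRCm38.p6) Mir124a-1 lies within the span of the long noncoding RNA gene Mir124a-1hg, and Mir124a-2 within that of Mir124-2hg. MiR-9-5p and miR-9-3p were placed at chr3:88019535-88019557 and chr3:88019574-88019595 (Mir9-1), at chr13:83878426-83878448 and chr13:83878463-83878484 (Mir9-2), and at chr7:86650165-86650187 and chr7:86650204-86650225 (Mir9-3). These lie within the spans of the noncoding genes Gm3764, C130071C03Rik and Mir9-3hg. That table also lists a further miRNA gene within Mir124a-2 and within each miR-9 gene, which cannot be told apart from the members where it shares their sequence.

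Levels are given in CPM, the counts per 1000000 microRNA counts of the column, and the columns held 8485806 counts for Jarid2-/-, 42293019 for Eed-/-, 32074712 for Ezh2-/- and 23793733 for wild-type. A count of 0 allows a level of up to 3 counts, which is 0.354 CPM for Jarid2-/-, 0.0709 CPM for Eed-/-, 0.0935 CPM for Ezh2-/- and 0.126 CPM for wild-type. Ranges in parentheses are exact 95% intervals, which cover counting error only, since reads without molecular identifiers are not independent molecules. The cells carried the microRNAs that define ES cells, with the 14 names of the miR-290 cluster at 38.2% of counts in Jarid2-/-, 44.4% in Eed-/-, 45.9% in Ezh2-/- and 39.7% in wild-type, and 0 of the 14 at 0 counts. The miR-302 cluster, another set of 10 ES cell names, was less even, at 1.28% of counts in Jarid2-/-, 1.56% in Eed-/-, 0.522% in Ezh2-/- and 0.774% in wild-type, so it was highest in Eed-/-, as were both arms of miR-9. The 6 mesenchymal microRNAs examined as markers of other cells summed to 742 CPM in Jarid2-/-, 575 CPM in Eed-/-, 634 CPM in Ezh2-/- and 1550 CPM in wild-type, with 0 of the 6 at 0 counts. The part of these marker sets in the results was not tested.

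The 3 loci of a name gave nearly the same count, so each name is represented by its middle locus. MiR-124-3p had 133, 130 and 128 counts at its chromosome 14, 2 and 3 loci in Jarid2-/- cells, 41997, 41918 and 41923 in Eed-/-, 51273, 51273 and 51274 in Ezh2-/-, and 24136, 24120 and 24124 in wild-type. Over the 16 sets of 3 loci the range was at most 3.85% of the middle count, and 5 sets were exactly equal. Loci are hence not independent measurements. If reads were split evenly over the loci rather than counted at each, the true level of a member relative to single-copy microRNAs would be higher than given here, while ratios between genotypes and between arms would stay the same.

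MiR-124-3p, the arm that acts in neurons, was scarce in Jarid2-/- cells and abundant in the other 3 genotypes. Its level was 15.3 CPM (12.8 to 18.2) in Jarid2-/-, 991 CPM (982 to 1001) in Eed-/-, 1599 CPM (1585 to 1612) in Ezh2-/- and 1014 CPM (1001 to 1027) in wild-type. It stood at place 377 by count among the 1900 names in Jarid2-/-, 81 in Eed-/-, 47 in Ezh2-/- and 89 in wild-type, so it ranked well inside the expressed repertoire of wild-type stem cells. In order of level, Ezh2-/- was highest, wild-type and Eed-/- followed close together, and Jarid2-/- was far below.

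The partner strand miR-124-5p did not share that order. It reached 176 CPM (167 to 185) in Jarid2-/-, 85.5 CPM (82.7 to 88.3) in Eed-/-, 205 CPM (200.4 to 210.4) in Ezh2-/- and 72.3 CPM (68.9 to 75.8) in wild-type. Jarid2-/- cells, lowest for the 3p arm, were thus second highest for the 5p arm.

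MiR-9-5p was scarce in 3 genotypes and clearly present in Eed-/- cells. It had 20 counts or 2.36 CPM (1.44 to 3.64) in Jarid2-/-, 1603 counts or 37.9 CPM (36.1 to 39.8) in Eed-/-, 12 counts or 0.374 CPM (0.193 to 0.654) in Ezh2-/- and 58 counts or 2.44 CPM (1.85 to 3.15) in wild-type. By counting error alone, the Jarid2-/- and wild-type intervals overlapped, Ezh2-/- lay below both, and Eed-/- lay above all others.

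MiR-9-3p had the same highest genotype but not the same lowest. Its level was 4.71 CPM (3.37 to 6.42) in Jarid2-/-, 33.6 CPM (31.9 to 35.4) in Eed-/-, 6.83 CPM (5.95 to 7.79) in Ezh2-/- and 6.81 CPM (5.80 to 7.94) in wild-type. The separate intervals of Jarid2-/-, Ezh2-/- and wild-type overlapped. By counting error alone Jarid2-/- still lay lower. Its ratio was 0.692 (0.477 to 0.984) to wild-type and 0.690 (0.480 to 0.971) to Ezh2-/-, too small a difference for the call rule used below. In the wild-type column miR-124-3p stood at 1014 CPM and miR-9-5p at 2.44 CPM, so the counts of these neural microRNAs differed widely. How evenly different sequences were captured in the libraries was not tested. In these bulk samples, more cells that express a microRNA and more of it per cell cannot be told apart.

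**Figure D1:**
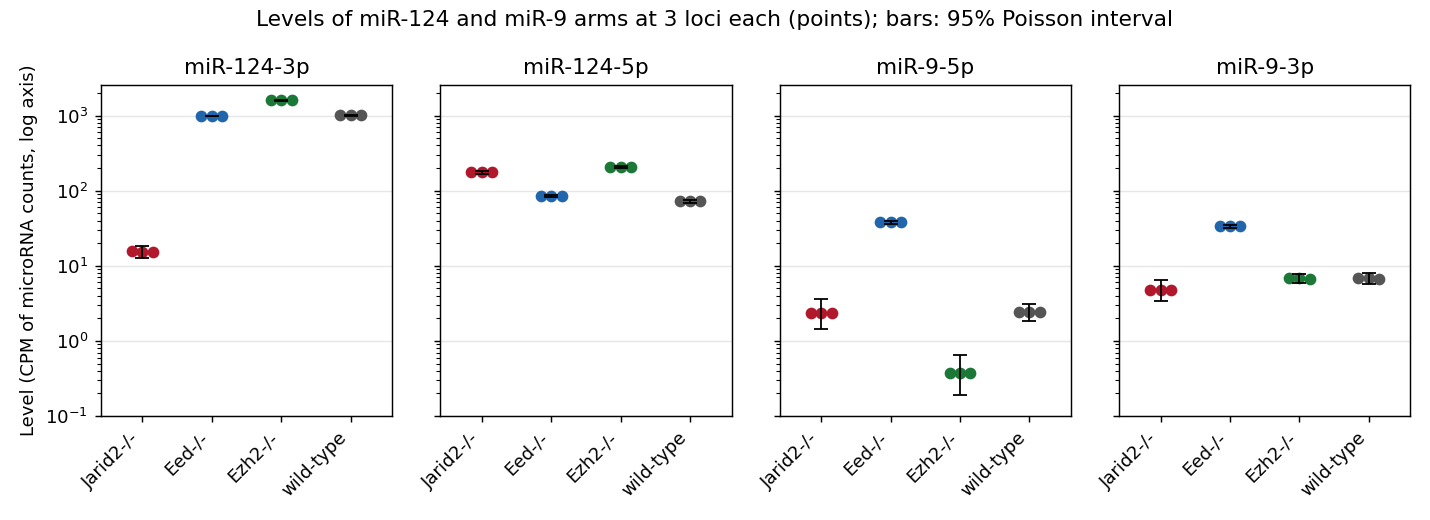
Level of each mature microRNA in CPM (log axis) by genotype, with a point for each of the 3 loci and a bar for the exact 95% Poisson interval of the middle locus. MiR-124-3p is lowest in Jarid2-/- at 15.3 CPM, and both miR-9 arms are highest in Eed-/-, at 37.9 and 33.6 CPM.

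The comparisons with wild-type ask how each microRNA differed in cells that lack a PRC2 protein. Log2 ratios were taken after adding 1 CPM to both levels. A name or locus was called higher or lower past a log2 ratio of 1 or -1, provided that either column held 10 counts or more. All 4 names and 12 loci passed this filter in every comparison.

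In Jarid2-/- cells the arms of miR-124 went in opposite directions. MiR-124-3p had 130 counts against 24124 in wild-type, a level 66.2-fold lower (55.7 to 79.2). MiR-124-5p had 1496 counts against 1720, a level 2.44-fold higher (2.27 to 2.62). MiR-9-5p, with a ratio of 0.967 (0.551 to 1.63), and miR-9-3p, with a ratio of 0.692 (0.477 to 0.984), were not called. Of the 12 loci 3 were higher and 3 lower, whereas 16.3% of 950 tested loci were higher and 22.8% lower. The loci of a name repeat nearly the same count. Counted by name, 1 of the 4 was higher and 1 lower, against 15.1% and 24.8% of 835 names. The log2 ratio of miR-124-3p, -5.96, was the fourth lowest of 835 tested names, against a median of -0.21 over these names, while that of miR-124-5p was 1.27.

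In Eed-/- cells both arms of miR-9 were higher and neither arm of miR-124 was called. MiR-9-5p had 1603 counts against 58 in wild-type, a level 15.5-fold higher (11.96 to 20.6). MiR-9-3p had 1422 counts against 162, a level 4.94-fold higher (4.19 to 5.85). The log2 ratio of miR-9-5p, 3.50, was 13th from the top of 976 tested names and that of miR-9-3p, 2.15, was 49th, with a median of 0.03 over all names. MiR-124-3p had a ratio of 0.978 (0.962 to 0.993) and miR-124-5p of 1.18 (1.12 to 1.25). Of the 12 loci 6 were higher and 0 lower, against 17.5% higher and 15.0% lower among 1096 tested loci. Counted by name, 2 of the 4 were higher and 0 lower, against 15.3% and 16.3% of 976 names. The sign of the miR-124-3p difference depended on the scaling, since with the denominators behind the authors' deposited reads-per-million values its log2 ratio was 0.68 in place of -0.03.

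In Ezh2-/- cells miR-124-5p was higher and miR-9-5p lower. MiR-124-5p had 6587 counts against 1720 in wild-type, a level 2.84-fold higher (2.69 to 3.0), and its log2 ratio of 1.49 was 21st from the top of 883 tested names. MiR-9-5p had 12 counts against 58, a level 6.52-fold lower (3.46 to 13.3), and this call rests on 12 counts. MiR-124-3p was 1.58-fold higher (1.55 to 1.60), below the size needed for a call, and miR-9-3p had a ratio of 1.0 (0.815 to 1.24). Of the 12 loci 3 were higher and 3 lower, against 4.9% higher and 24.5% lower among 1000 tested loci. Counted by name, 1 of the 4 was higher and 1 lower, against 5.21% and 25.6% of 883 names. The median log2 ratio over all names was -0.42 in this comparison, and relative to it miR-124-3p stood at 1.08, miR-124-5p at 1.91, miR-9-3p at 0.42 and miR-9-5p at -0.90. With trimmed-mean (TMM) scaling, median-ratio scaling or the authors' denominators miR-124-3p would be called higher, at log2 ratios of 1.40, 1.17 and 1.10. Under TMM the split over all loci was 147 higher and 160 lower in place of 49 and 245.

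**Figure D2:**
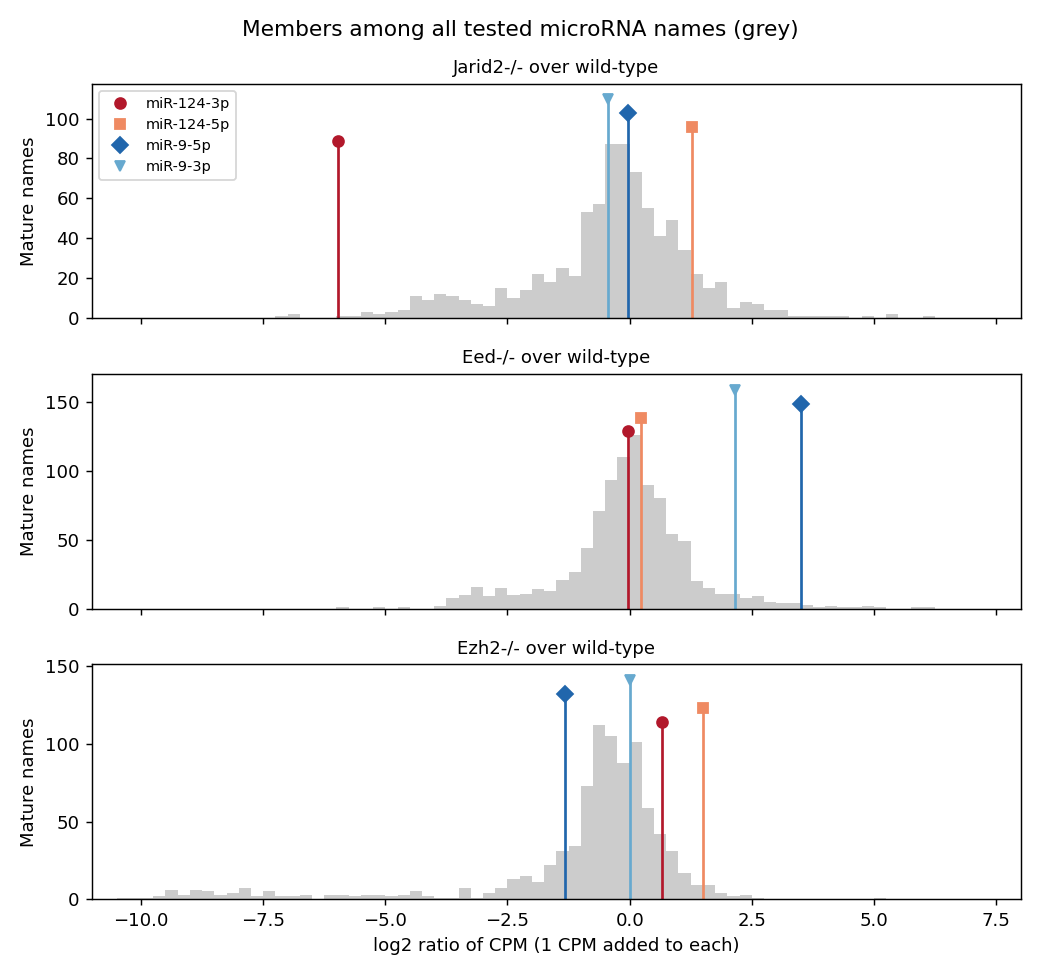
Histograms of the log2 ratio of CPM (horizontal axis, 1 CPM added) over all tested mature names in grey, for each mutant over wild-type, with vertical lines and symbols at the members. MiR-124-3p lies far left at -5.96 in Jarid2-/-, and the miR-9 arms lie right at 3.50 and 2.15 in Eed-/-.

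Set against each other, the mutants differed in both families. In Jarid2-/- cells miR-124-3p was 64.7-fold lower (54.5 to 77.5) than in Eed-/- and 104-fold lower (87.9 to 125) than in Ezh2-/-, the lowest ratio of the 816 names tested against Ezh2-/-. MiR-9-5p was 16.1-fold lower (10.4 to 26.4) and miR-9-3p 7.13-fold lower (5.21 to 10.0) in Jarid2-/- than in Eed-/- cells. Between the core subunits, miR-9-5p was 101-fold higher (57.8 to 196) in Eed-/- than in Ezh2-/- cells, with 1603 counts against 12, and miR-9-3p was 4.92-fold higher (4.27 to 5.70). MiR-124-5p was 2.40-fold lower (2.31 to 2.50) in Eed-/- than in Ezh2-/-. The Eed-/- and Ezh2-/- columns thus differed from each other in miR-9 levels. In Eed-/- over Ezh2-/- 6 of the 12 loci, those of miR-9, were higher and the 3 of miR-124-5p lower, where 35.7% of 1091 loci were higher and 4.58% lower. The scaling changed calls here. MiR-124-3p, at a log2 ratio of -0.69, would be called lower with TMM (-1.59) or median-ratio factors (-1.43), and miR-124-5p, at -1.25, would lose its call with the authors' denominators (-0.99). In Jarid2-/- over Eed-/- the 3 loci of miR-124-5p were higher and the other 9 lower, where 7.18% and 18.9% of 1073 loci were. MiR-124-5p was just past the limit, at 1.04, and fell short of it with the authors' denominators (0.82), without the miR-290 and Gtl2-Rian-Mirg clusters (0.87) or with 10 CPM added (0.96). In Jarid2-/- over Ezh2-/- the 3 loci of miR-9-5p were higher and the 3 of miR-124-3p lower, where 33.0% and 8.92% of 930 loci were. The call of miR-9-5p, at 1.29, was lost with 10 CPM added (0.25), and miR-9-3p, at -0.45, would be called lower with TMM (-1.06) or median-ratio factors (-1.01). Over names in place of loci, 7.31% were higher and 18.7% lower in Jarid2-/- than in Eed-/-, 30.6% and 9.07% in Jarid2-/- than in Ezh2-/-, and 32.6% and 4.41% in Eed-/- than in Ezh2-/-.

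The balance between arms does not depend on how the columns are scaled, because both arms come from the same column. The 5p arm made up 92.0% (90.6 to 93.3%) of miR-124 counts in Jarid2-/- cells, 7.94% (7.69 to 8.19%) in Eed-/- cells, 11.4% (11.1 to 11.6%) in Ezh2-/- cells and 6.66% (6.35 to 6.97%) in wild-type. The 5p arm thus dominated in Jarid2-/-, 11.5-fold over its partner, and the 3p arm dominated in the other 3 genotypes, by 14.0-fold in wild-type. With both arms summed, miR-124 stood at 192 CPM in Jarid2-/- and 1086 CPM in wild-type, 5.67-fold lower (5.39 to 5.96), so the sum followed the 3p arm.

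For miR-9 the 5p arm made up 33.3% (21.7 to 46.7%) of counts in Jarid2-/-, 53.0% (51.2 to 54.8%) in Eed-/- cells, 5.19% (2.71 to 8.90%) in Ezh2-/- cells and 26.4% (20.7 to 32.7%) in wild-type. Eed-/- cells had the arms nearly level, and Ezh2-/- cells had the 3p arm 18.3-fold over the 5p arm. The Jarid2-/- and wild-type intervals overlapped. Both arms summed came to 71.5 CPM in Eed-/- and 9.25 CPM in wild-type, 7.74-fold higher (6.74 to 8.91) in Eed-/-.

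**Figure D3:**
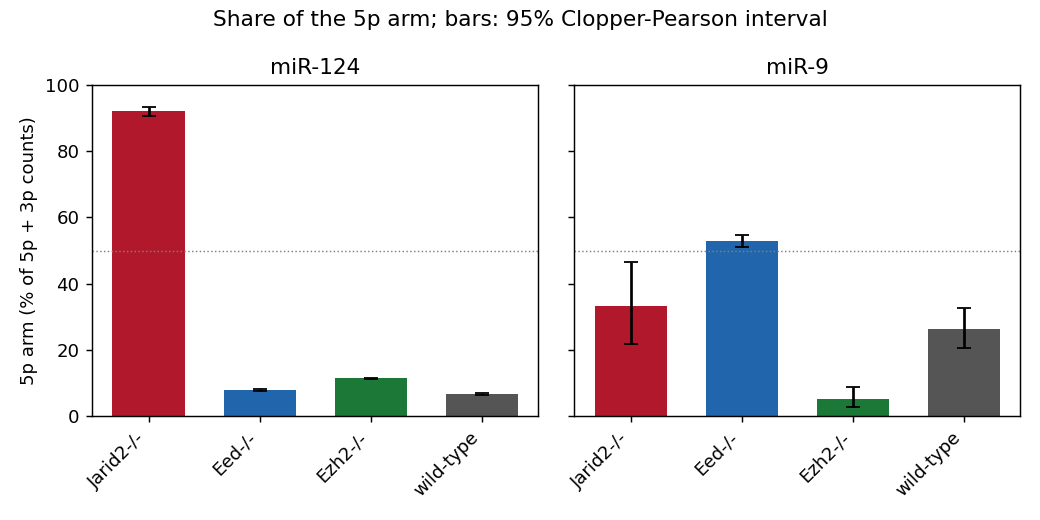
Share of the 5p arm in percent of the 5p and 3p counts of miR-124 and of miR-9 by genotype, with exact 95% Clopper-Pearson intervals and a dotted line at equal arms. The 5p share of miR-124 is 92.0% in Jarid2-/- and 6.66% in wild-type, and that of miR-9 is 53.0% in Eed-/- and 5.19% in Ezh2-/-.

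Arm balances of many hairpins differed between the columns, and the members were set beside them. The shift was measured as the log2 ratio of 5p to 3p counts in the mutant minus that in wild-type, over hairpins with at least 10 counts for both arms in both columns. For Jarid2-/- the shift was at least 2-fold in 46.8% of 205 hairpins and the higher arm changed in 8.29%. That of miR-124, 7.33 towards the 5p arm, was the largest of the 205, and the next was miR-294 of the miR-290 cluster at 5.31, likewise towards the 5p arm. For miR-22 the shift was 4.93, and its higher arm also changed from 3p to 5p. It had 175 counts of 5p and 84 of 3p in Jarid2-/-, against 810 and 11889 in wild-type. The shift of miR-9 in Jarid2-/- was 0.48, at place 147 by size.

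In Eed-/- the shift was at least 2-fold in 40.7% of 253 hairpins, miR-9 stood at 1.65 (place 62) and its higher arm changed, as in 6.72% of hairpins, while miR-124 stood at 0.27 (place 209). In Ezh2-/- it was at least 2-fold in 30.9% of 204 hairpins, miR-9 stood at -2.71 towards the 3p arm (place 10) and miR-124 at 0.85 (place 77), and in neither did the higher arm change, as it did in 8.82% of hairpins. Differences in arm balance were thus common in all 3 mutant columns. Library preparation and genotype cannot be told apart in these columns.

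**Figure D4:**
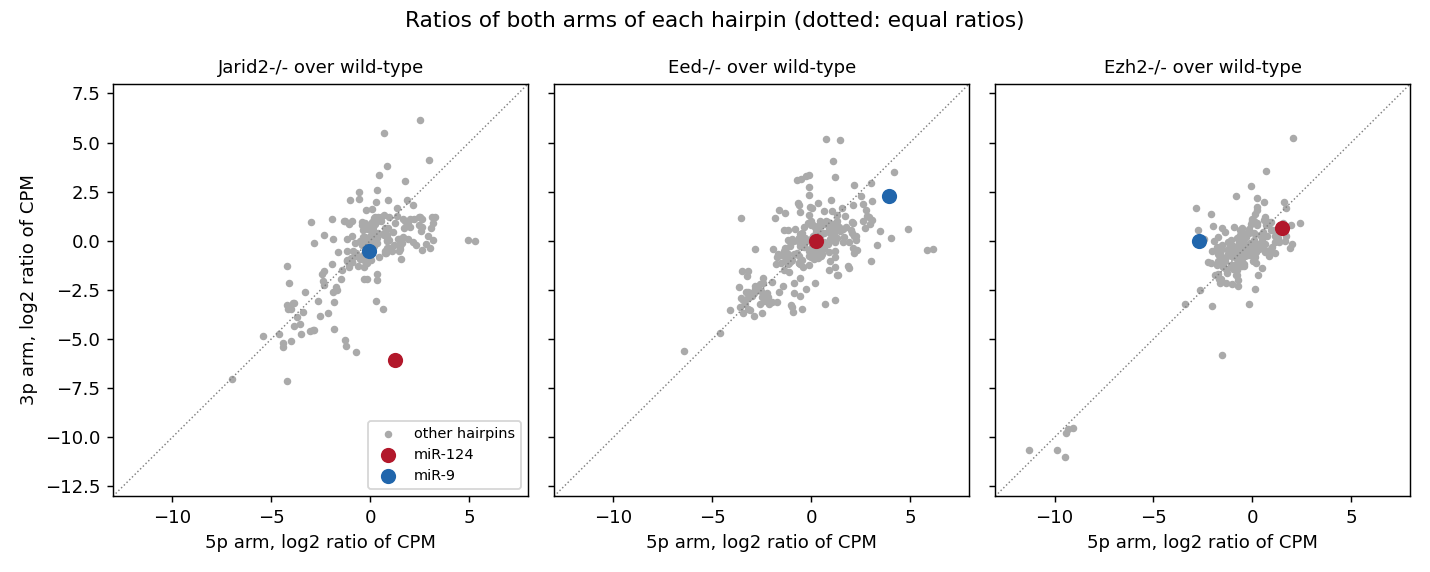
For each hairpin with at least 10 counts for both arms in both columns, the log2 ratio of CPM over wild-type of the 5p arm (horizontal axis) and of the 3p arm (vertical axis) in each mutant, with a dotted line where both are equal. MiR-124 lies far below the line in Jarid2-/-, with a shift of 7.33, and miR-9 lies left of it in Ezh2-/-, with a shift of -2.71.

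Other neural microRNAs held names called in both directions in every mutant. Of 18 names on a list of microRNAs known from neurons and their progenitors, 17 were tested in each comparison. In Jarid2-/- 4 were higher and 2 lower with a median log2 ratio of -0.12, while over all 835 names 15.1% were higher and 24.8% lower with a median of -0.21. In Eed-/- 5 were higher and 2 lower with a median of 0.34, while over all 976 names 15.3% were higher and 16.3% lower with a median of 0.03. In Ezh2-/- 2 were higher and 2 lower with a median of -0.28, while over all 883 names 5.21% were higher and 25.6% lower with a median of -0.42.

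The most abundant of the list was miR-7a-5p, at 4795 CPM in Jarid2-/-, 5027 CPM in Eed-/-, 4761 CPM in Ezh2-/- and 3701 CPM in wild-type, above miR-124-3p in every genotype. The highest ratio in Jarid2-/- and in Eed-/- was that of its relative miR-7b-5p, 40.4-fold (36.8 to 44.5) and 57.9-fold (52.8 to 63.6) over wild-type. The partner arm miR-7b-3p was not higher in Eed-/-, with 33 counts against 26 in wild-type, a log2 ratio of -0.49 without added CPM. By the log2 ratio with 1 CPM added, the lowest was miR-219a-5p in Jarid2-/-, 4.34-fold lower (2.95 to 6.63), and miR-338-3p in Eed-/-, 4.37-fold lower (3.64 to 5.26), both known from oligodendrocyte differentiation. MiR-137-3p had 0 counts in Jarid2-/-, which allows up to 0.354 CPM, against 12 counts or 0.504 CPM in wild-type. In Ezh2-/- the highest was miR-129-2-3p, 2.58-fold over wild-type (2.50 to 2.67), and the lowest miR-218-5p, a motor neuron microRNA, 6.98-fold lower (6.75 to 7.22).

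The microRNAs with the profile most like a member were found by the distance between log2 levels, with 1 CPM added, over the 4 genotypes, each centred on its mean, among 721 names. The added 1 CPM makes distances between profiles near or below that level smaller. The nearest to miR-124-3p was miR-22-3p, at a distance of 1.26, with 9.90 CPM in Jarid2-/-, 351 CPM in Eed-/-, 329 CPM in Ezh2-/- and 500 CPM in wild-type. MiR-196a-5p (2.12), miR-320-3p (2.32), miR-15b-3p (2.60) and miR-1968-5p (2.99) followed. All 5 were lowest in Jarid2-/-, which follows from selecting them by this profile, and miR-1968-5p had only 2 counts there. Of the 5, 3 are 3p arms, and all distances were above 1 log2 unit. The nearest to miR-9-5p were miR-467d-5p (1.15), miR-93-5p (1.16), miR-670-5p (1.22), miR-675-5p (1.25) and miR-675-3p (1.26). By the same selection all were highest in Eed-/-, and miR-675-5p had only 3 counts in Jarid2-/- and 1 in Ezh2-/-. MiR-93-5p stood at 5369 CPM in Eed-/- and 178 CPM in wild-type.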

How the data were processed

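Small RNA of 18 to 40 nt was gel-selected and sequenced on a SOLiD instrument, per the labels' protocols. Reads were handled with cutadapt and Bowtie against mm9, per the submitters' processing notes, with settings and the treatment of reads matching several loci unstated. The deposited tables hold raw read counts per mature locus of miRBase release 20, and the authors' reads-per-million (RPM) values, per the file headers. Columns were assigned by the gene in their name, and the wild-type column names only the CJ7 line.

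CPM, ratios and intervals (Poisson, conditional binomial, Clopper-Pearson) were computed with scipy 1.17.1, and TMM and median-ratio factors with edgeR 4.0.16 and DESeq2 1.42.0. The call rule was tried on simulated Poisson counts, with changes set only at loci expected to hold at least 100 counts. That simulation holds no variation between libraries, so it cannot check the calls made here, least of all those at low counts. Alternatives were 4 scalings, pseudocounts of 0.1 and 10 CPM, filters of 1 and 100 counts, other loci of a name and 1 entry per name. All members were named, with the extremes and most abundant of the neural list and the 5 profiles nearest to miR-124-3p and to miR-9-5p among names with at least 50 counts. The members and lists were chosen with earlier results of these data known. Chromatin and messenger RNA samples were not analysed here, so the genotypes were not checked.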

Additional observations from a re-analysis of the deposited data

How the results depend on the processing

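Depth limits miR-9 most, with 12 to 58 counts of its 5p arm outside Eed-/-. The log2 ratio of miR-124-3p in Jarid2-/- over wild-type was -5.96, and -5.47 with the authors' denominators or -5.34 with 10 CPM added. That in Eed-/- was -0.03, and -0.19 with TMM, -0.25 with median-ratio factors and 0.68 with the authors' denominators. That in Ezh2-/- was 0.66, and 1.40, 1.17 and 1.10 with these scalings and 0.69 without the miR-290 and Gtl2-Rian-Mirg clusters, so 6 member loci in place of 3 were higher under the first 3 scalings. For miR-9-5p the ratio in Eed-/- was 3.50, and 4.07 with the authors' denominators, 3.90 with 0.1 CPM added and 1.95 with 10 CPM. In Ezh2-/- it was -1.32, and -2.42 and -0.26 with 0.1 and 10 CPM added, and 0 in place of 3 member loci were lower with 10 CPM added or at least 100 counts, which leaves out its 12 and 58 counts. The 5p shares stayed within their intervals at every locus. Over 192 alternative ratios of members the sign changed 4 times, never for a called ratio, and the call 13 times.

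Against column totals the alternatives moved Ezh2-/- over wild-type by up to 0.74 (TMM) and by 0.71 in Eed-/- and 0.50 in Jarid2-/- (authors' denominators). Of loci in Ezh2-/-, 49 were higher and 245 lower, against 147 and 160 with TMM, 110 and 189 with median-ratio factors, 93 and 185 with the authors' denominators, 26 and 160 with 10 CPM added, and 87 higher with 0.1 CPM added. In Eed-/- 192 and 164 became 350 and 106 with the authors' denominators and 130 and 194 with median-ratio factors, and 105 were higher with 10 CPM added. In Jarid2-/- 155 and 217 became 253 and 176 with the authors' denominators, and 95 were higher with 10 CPM added. The cause of these differences was not tested. With at least 100 counts in both arms, a minimum chosen after seeing the data, 38.5% of hairpins in Jarid2-/-, 34.6% in Eed-/- and 29.0% in Ezh2-/- shifted at least 2-fold. No paired analysis was possible because each genotype has a single column, and no replicate could be left out.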

Other observations

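A further microRNA lies beside miR-124 on chromosome 14. MiR-3078-5p (chr14:65210037-65210059, mm9, plus strand) starts 491 bp from miR-124-3p, and the RefSeq gene table lists mir-3078 among the synonyms of the host gene Mir124a-1hg. It had 71 counts or 8.37 CPM in Jarid2-/- cells, 200 counts or 4.73 CPM in Eed-/-, 182 counts or 5.67 CPM in Ezh2-/- and 66 counts or 2.77 CPM in wild-type. Its level in Jarid2-/- was 3.02-fold higher (2.13 to 4.28) than in wild-type, where miR-124-5p was 2.44-fold higher and miR-124-3p 66.2-fold lower. MiR-3078-5p was also 1.70-fold higher (1.28 to 2.29) in Eed-/- and 2.05-fold higher (1.54 to 2.75) in Ezh2-/- than in wild-type, though neither was called. Its partner miR-3078-3p had only 5 counts in Jarid2-/-, 27 in Eed-/-, 13 in Ezh2-/- and 6 in wild-type. MiR-3093-5p and miR-3093-3p, which start 427 and 387 bp from miR-9-5p on chromosome 3, had 0 counts in all 4 columns.

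Profiles nearest to the lesser arms were looked up after the values were seen. MiR-9-3p had a near match in miR-351-5p, at a distance of 0.10 over the 4 genotypes, with 24.6 CPM in Jarid2-/-, 140 CPM in Eed-/-, 31.8 CPM in Ezh2-/- and 31.7 CPM in wild-type. The next, miR-10b-3p (0.41), miR-615-3p (0.56), miR-6414 (0.64) and miR-6347 (0.64), had 0 to 20 counts in each column outside Eed-/-. For miR-124-5p the nearest were miR-3572-3p (0.25), miR-3091-3p (0.27), miR-708-3p (0.28), miR-378b (0.31) and miR-3061-3p (0.40). The first of these stood at only 2.36 CPM in Jarid2-/-, 0.378 CPM in Eed-/-, 3.15 CPM in Ezh2-/- and 0.378 CPM in wild-type, so its small distance rests on the 1 CPM added. MiR-378b had 1412 counts in Jarid2-/-, 3219 in Eed-/-, 6708 in Ezh2-/- and 1303 in wild-type, where miR-124-5p had 1496, 3616, 6587 and 1720 in the same columns.

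Mature length was set beside the low level of miR-124-3p in Jarid2-/-. In Jarid2-/- over wild-type 26.9% of 26 tested names of 20 nt, its length, were called lower, and the median log2 ratio was -0.38. For 164 names of 21 nt these values were 27.4% and -0.32, for 443 names of 22 nt 27.1% and -0.26, and for 145 names of 23 nt 13.8% and 0.02. In Eed-/- the median was 0.01 for 33 names of 20 nt, -0.12 for 21 nt, 0.02 for 22 nt and 0.14 for 23 nt, and in Ezh2-/- it was -0.29 for 30 names of 20 nt, -0.28 for 21 nt, -0.49 for 22 nt and -0.38 for 23 nt. Among hairpins in Jarid2-/-, 65 shifted at least 2-fold towards the 5p arm and 31 towards the 3p arm, against 29 and 34 in Ezh2-/- and 66 and 37 in Eed-/-.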
